A study of Mus musculus with 23 samples.

Results

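Polycomb repressive complex 1 (PRC1) is represented here by 9 genes, taken by name from the 22517 named genes of the deposited tables. They are the chromobox genes Cbx2, Cbx6, Cbx7 and Cbx8, the ring finger genes Bmi1, Pcgf2, Rnf2 and Ring1, and Scmh1. All 9 were found and all 9 were tested by the authors in both tables. RNA sequencing covered 3 populations of adult mouse intestinal epithelium on a mixed B6;129 background, with 3 libraries in each. Eed-null villus came from EedF/F; Villin-CRE mice, in which the Villin promoter drives Cre in the gut epithelium, and wild-type villus came from EedF/F; Cre- mice. Intestinal stem cells (ISC) were the cells with high GFP of Eed+/+; Lgr5-EGFP-IRES-CREERT2 mice. All of these mice had received 1 to 2 mg of tamoxifen on each of 5 days, and the labels do not give the time from tamoxifen to harvest. Villus samples were epithelium released with EDTA and frozen, whereas ISC were also dissociated with an enzyme and sorted, so handling runs along with cell type. The Eed and Cre genotypes of the ISC mice and the wild-type villus mice also differ, so genotype runs along with cell type too. Cre is present in Eed-null and absent from wild-type villus mice, so it cannot be told apart from the loss of Eed.

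PRC1 and PRC2 are the main complexes of Polycomb repression. PRC2, of which Eed is a core subunit, places H3K27me3, the chromodomain of a Cbx protein in canonical PRC1 binds that mark, and the ring finger proteins of PRC1 attach ubiquitin to histone H2A. A PRC1 particle holds a catalytic ring finger protein (Rnf2, also called RING1B, or Ring1, also called RING1A) and a PCGF partner (Bmi1, Pcgf2 or a relative). Bmi1 is known in the intestine as a marker of a crypt population, and in many cell types as a repressor of the cell-cycle inhibitor gene Cdkn2a.

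Levels are RPKM, by name reads scaled to the length of the gene and to mapped reads, with 1 value per group. Values of the same wild-type villus libraries differ by a constant between the 2 comparisons, so they also carry a scaling particular to each. The authors' deposited tables print no value per library, so no spread can be given, the depth of each library is unknown, and the authors' q (p adjusted for the number of genes tested) is the only measure of error. The word called is used for a gene with status OK and a deposited q of 0.05 or less. The 2 tables were scaled separately, and wild-type villus values of the Eed-null table, times 1.16193, equal those of the ISC table; levels set across the tables use that factor. As a check of the groups, Eed stood at 3.00 RPKM in Eed-null villus against 9.17 RPKM in wild-type villus. All 7 enterocyte markers were called higher in wild-type villus and all 6 stem cell markers higher in ISC.

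**Figure D1:**
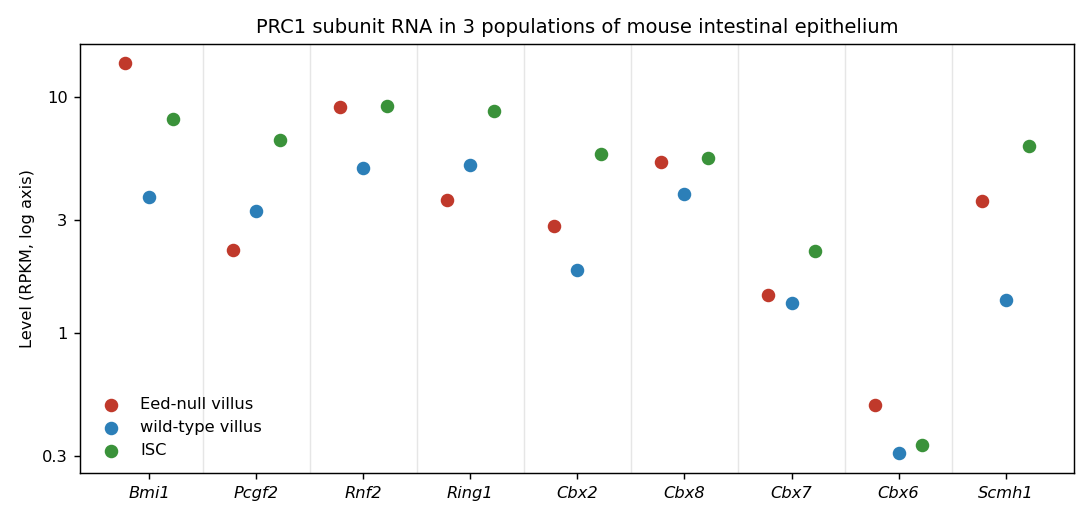
Level of each PRC1 gene (RPKM, log axis) in Eed-null villus, wild-type villus and ISC, 1 authors' value per group, with Eed-null values multiplied by 1.16193 to put them on the scale of the ISC table. ISC is the highest group for 7 of 9 genes and wild-type villus the lowest for 7 of 9, while Bmi1 is highest in Eed-null villus at 13.9 RPKM.

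Bmi1, Rnf2 and Scmh1 rose in Eed-null villus, while Pcgf2 and Ring1, the paralogues of Bmi1 and Rnf2, had lower values that did not pass the test. The 3 genes were called higher and none of the 9 lower, where 7.90% of the 12525 tested genes were called higher and 3.46% lower. With q at or below 0.01, 2 members and 5.80% of tested genes were called higher. The median log2 ratio of the 9 members was 0.61, beside -0.08 over all tested genes. Between wild-type villus and ISC every member had its lower value in villus, and 6 of 9 (Scmh1, Cbx2, Bmi1, Pcgf2, Rnf2 and Ring1) were called lower there. In that comparison 32.3% of 13007 tested genes were called lower and 30.5% higher. Values were lower in villus for 52.6% of tested genes with values above 0 in both groups. With q at or below 0.01, 4 members and 27.1% of tested genes were called lower. The median log2 ratio of the members was -0.89, beside -0.10 over all tested genes. Both comparisons use the same wild-type villus libraries, so the ratios of a gene in the 2 tables are not independent. In bulk samples such as these, fewer cells of a type and less RNA per cell cannot be told apart.

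**Figure D2:**
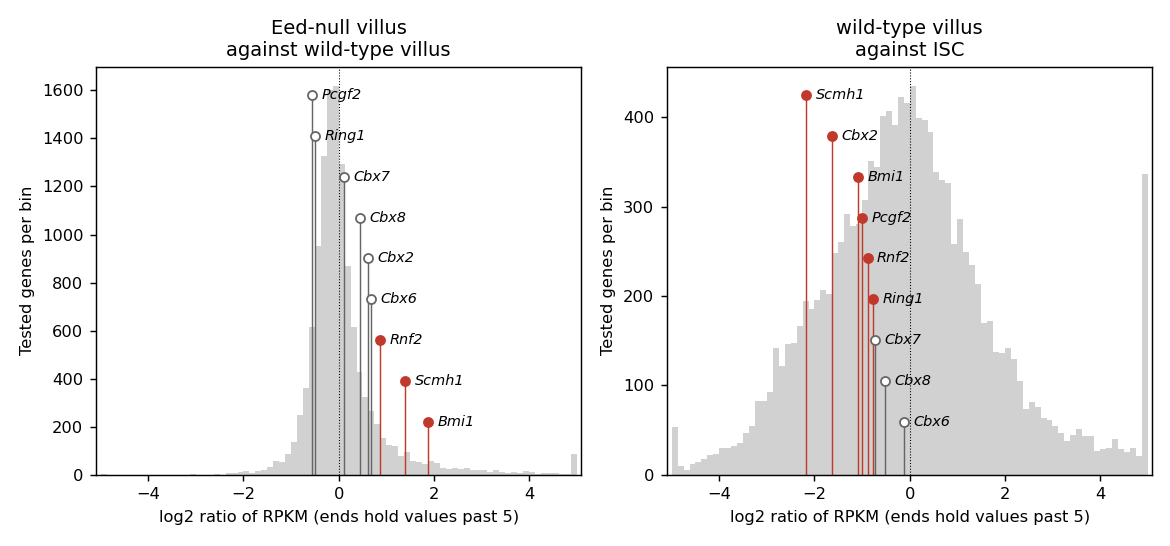
Distribution over tested genes of the log2 ratio of RPKM (grey bars, genes per bin, with values past 5 gathered in the end bins) in Eed-null against wild-type villus (left) and wild-type villus against ISC (right). Lines mark the 9 PRC1 genes, filled where called. Bmi1 at 1.88 lies farthest right on the left panel and Scmh1 at -2.17 farthest left on the right panel; line heights only separate the names.

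The 3 genes that rose and the 2 paralogues that did not are shown by the 250 bases before their RefSeq start on build GRCm38, since these members divide the set. The windows are chr2:18676768-18677017 (plus strand) for Bmi1, chr11:97699649-97699898 (minus strand) for Pcgf2, chr1:151500992-151501241 (minus strand) for Rnf2, chr17:34024681-34024930 (minus strand) for Ring1 and chr4:120405098-120405347 (plus strand) for Scmh1. Capitals mark matches on either strand to the E-box CACGTG or to the E2F-type word TTCNCGC, in which N is any base.
Bmi1: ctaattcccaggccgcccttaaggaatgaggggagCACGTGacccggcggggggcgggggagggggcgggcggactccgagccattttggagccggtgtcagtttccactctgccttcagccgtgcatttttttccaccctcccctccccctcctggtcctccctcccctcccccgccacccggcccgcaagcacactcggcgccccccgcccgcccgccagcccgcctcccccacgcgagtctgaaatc
Pcgf2: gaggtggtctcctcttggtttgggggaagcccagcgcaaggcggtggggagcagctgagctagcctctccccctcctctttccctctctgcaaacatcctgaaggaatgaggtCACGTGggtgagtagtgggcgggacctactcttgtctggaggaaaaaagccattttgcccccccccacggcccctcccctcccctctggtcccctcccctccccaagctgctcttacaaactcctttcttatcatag
Rnf2: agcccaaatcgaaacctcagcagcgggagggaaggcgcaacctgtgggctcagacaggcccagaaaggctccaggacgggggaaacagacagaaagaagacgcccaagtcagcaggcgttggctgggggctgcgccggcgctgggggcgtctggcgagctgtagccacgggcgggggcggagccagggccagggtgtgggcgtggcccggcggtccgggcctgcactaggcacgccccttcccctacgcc
Ring1: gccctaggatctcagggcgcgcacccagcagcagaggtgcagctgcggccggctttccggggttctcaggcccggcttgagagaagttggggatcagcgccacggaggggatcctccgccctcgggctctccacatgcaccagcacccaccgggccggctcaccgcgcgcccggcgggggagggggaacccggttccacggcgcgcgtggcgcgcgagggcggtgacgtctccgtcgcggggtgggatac
Scmh1: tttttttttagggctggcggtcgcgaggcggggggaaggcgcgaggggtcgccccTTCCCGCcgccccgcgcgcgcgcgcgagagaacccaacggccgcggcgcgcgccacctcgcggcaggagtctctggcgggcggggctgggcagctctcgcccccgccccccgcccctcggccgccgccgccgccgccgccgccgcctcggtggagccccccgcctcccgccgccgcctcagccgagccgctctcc

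An E-box was matched in the windows of both PCGF paralogues, Bmi1 and Pcgf2, and in those of Cbx6 and Cbx8, which are not shown. It was matched in 6.02% of all 32851 RefSeq windows of this length. The E2F-type word was matched in the Scmh1 window, in that of Cbx6 and in 7.36% of all windows. The GC box GGGCGG was matched 6 times before Bmi1, 4 times before Scmh1, 2 times each before Rnf2 and Ring1 and once before Pcgf2, and 32.7% of all windows hold at least 1. The 5 windows shown were from 59.6% (Pcgf2) to 81.6% (Scmh1) G and C, beside a median of 52.4% over all windows. Matches were not compared with windows of like G and C content. In the Scmh1 window 1 GC box match overlaps the E2F-type match. CCAAT and the AP-1 word TGANTCA were matched in none of these 5 windows, and in 33.8% and 6.75% of all windows. The Bmi1, Rnf2, Ring1 and Scmh1 windows were rich in CpG, with 21, 20, 30 and 45 CpG pairs, whereas the Pcgf2 window held 5, near the median of 6 over all windows. RefSeq gives Scmh1 another start whose window holds no CpG. These data do not show which start was used for Scmh1, Pcgf2 or the other members. The low CpG count of Pcgf2 therefore holds for the window shown, which may not lie before the start in use. These matches describe the letters only; no binding was measured at them here. Windows were found for 8 of 9 members.

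Bmi1, a PCGF protein of canonical PRC1, measured 12.0 RPKM in Eed-null villus, with 3.25 RPKM in wild-type villus. It was 3.68-fold higher in Eed-null villus (q = 1.14e-10 in the authors' deposited table), and 500 of the 12428 tested genes with values above 0 in both groups had a larger ratio. Against ISC, wild-type villus was lower, with 3.78 RPKM in villus next to 8.07 RPKM in ISC. The authors' deposited table lists q = 0.000105 for this difference of 2.13-fold. On the common scale Eed-null villus stood at 13.9 RPKM, above both other groups and 1.72 times the ISC value, a difference for which the tables hold no test. Among all tested genes Bmi1 lay at percentile 64.1 of level in Eed-null villus and at percentile 35.3 in wild-type villus.

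Bmi1 occupies 18598644 to 18608256 on chromosome 2 of build mm9, 801 bp from the entry of Commd3, a gene of the COMMD family. Commd3 measured 79.3 RPKM in Eed-null villus, with 40.5 RPKM in wild-type villus, and was called higher (q = 0.000997 in the authors' deposited table). Its level was 47.1 RPKM in wild-type villus next to 36.1 RPKM in ISC, and it was not called (q = 0.169 in the authors' deposited table), so there Bmi1 was lower in villus while the value of Commd3 was higher. The library kit does not mark strand, and reads running from one gene into the other cannot be told apart in these tables.

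Pcgf2, also called Mel18, can take the place of Bmi1 in canonical PRC1. Its level was 1.93 RPKM in Eed-null villus, with 2.84 RPKM in wild-type villus, and it was not called (q = 0.569 in the authors' deposited table). In wild-type villus it was 2.00-fold lower than in ISC, with 3.30 RPKM in villus next to 6.60 RPKM in ISC (q = 0.0171 in the authors' deposited table). Pcgf2 lies at 97550136 to 97561811 on chromosome 11 of mm9, 197 bp from the entry of Cisd3, which was at 119.8 RPKM in Eed-null villus next to 125.4 RPKM in wild-type villus and was not called. Against ISC, Cisd3 was called higher in villus, with 145.7 RPKM in villus next to 85.6 RPKM in ISC (q = 0.00174 in the authors' deposited table), where Pcgf2 was lower. Bmi1 made up 86.1% of the summed RPKM of Bmi1 and Pcgf2 in Eed-null villus, 53.4% in wild-type villus and 55.0% in ISC. A share of a summed level does not depend on the scaling of a table, but the difference between these shares was not tested, since no library values are printed.

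**Figure D3:**
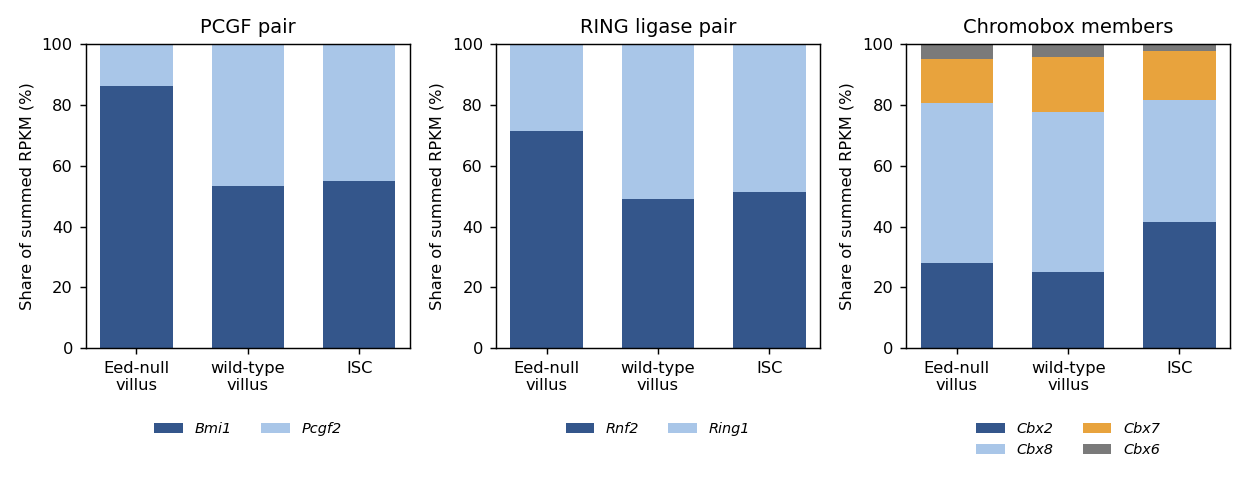
Share of the summed RPKM (percent) held by each gene of the PCGF pair, of the ring finger ligase pair and of the 4 chromobox members, in Eed-null villus, wild-type villus and ISC, from 1 authors' value per group. Bmi1 holds 86.1% and Rnf2 71.3% of its pair in Eed-null villus, while in the other 2 groups these shares lie between 49.2% and 55.0%.

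Of the catalytic pair, Rnf2 rose in Eed-null villus and Ring1 was not called. Rnf2, the main ubiquitin ligase of PRC1 in many cell types, measured 7.80 RPKM in Eed-null villus, with 4.29 RPKM in wild-type villus, 1.82-fold higher in Eed-null villus (q = 0.0157 in the authors' deposited table). Ring1 measured 3.14 RPKM in Eed-null villus, with 4.43 RPKM in wild-type villus (q = 0.423 in the authors' deposited table). Rnf2 made up 71.3% of the pair in Eed-null villus, 49.2% in wild-type villus and 51.4% in ISC.

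Both ligase genes were lower in wild-type villus than in ISC. Rnf2 measured 4.99 RPKM in villus, with 9.22 RPKM in ISC (q = 0.00176 in the authors' deposited table). Ring1 measured 5.14 RPKM in villus, with 8.72 RPKM in ISC (q = 0.0165 in the authors' deposited table). On the common scale Rnf2 reached 9.06 RPKM in Eed-null villus, 0.98 times its ISC level, and Ring1 3.65 RPKM, 0.42 times its ISC level. Summed over the pair, the level was 10.9 RPKM in Eed-null villus, with 8.72 RPKM in wild-type villus in one table, and 10.1 RPKM in wild-type villus and 17.9 RPKM in ISC in the other. On build mm9 Rnf2 lies between 153316535 and 153347953 on chromosome 1 and Ring1 between 34157736 and 34161625 on chromosome 17, and neither overlaps another entry.

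Scmh1, a homologue of the Drosophila Polycomb protein Sex comb on midleg, had the largest difference of the set between wild-type villus and ISC. It measured 1.38 RPKM in villus, with 6.19 RPKM in ISC, 4.50-fold lower in villus (q = 9.9e-11 in the authors' deposited table). Its level was 3.13 RPKM in Eed-null villus, with 1.19 RPKM in wild-type villus, 2.64-fold higher in Eed-null villus (q = 0.00105 in the authors' deposited table). On the common scale it had 3.63 RPKM in Eed-null villus, 0.59 times its ISC level. Scmh1 spans 120077885 to 120202804 on chromosome 4 of mm9 and overlaps no other entry.

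No chromobox member was called in Eed-null villus, where all 4 had higher values. Of all tested genes with values above 0 in both groups, 42.2% had higher values there. Cbx2, which binds H3K27me3 and compacts chromatin, measured 2.44 RPKM in Eed-null villus, with 1.59 RPKM in wild-type villus (q = 0.259 in the authors' deposited table). Cbx8, the most abundant of the 4 in villus, measured 4.56 RPKM in Eed-null villus, with 3.34 RPKM in wild-type villus (q = 0.545 in the authors' deposited table). The remaining chromobox members were lower in level. Cbx7 measured 1.24 RPKM in Eed-null villus, with 1.15 RPKM in wild-type villus (q = 0.94 in the authors' deposited table). Cbx6 measured 0.426 RPKM in Eed-null villus, with 0.265 RPKM in wild-type villus (q = 0.482 in the authors' deposited table). None reached an unadjusted p under 0.05 in the authors' deposited table, where Cbx2 came nearest with p = 0.0569.

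Between wild-type villus and ISC, Cbx2 alone of the 4 was called. It measured 1.85 RPKM in villus, with 5.75 RPKM in ISC, 3.11-fold lower in villus (q = 2.39e-07 in the authors' deposited table). That ratio is larger than those of Bmi1, Pcgf2, Rnf2 and Ring1, and smaller than that of Scmh1. Cbx7, the chromobox protein typical of embryonic stem cells, measured 1.33 RPKM in villus, with 2.22 RPKM in ISC (q = 0.093 in the authors' deposited table). Cbx8 measured 3.88 RPKM in villus, with 5.54 RPKM in ISC (q = 0.222 in the authors' deposited table). Cbx6 measured 0.307 RPKM in villus, with 0.333 RPKM in ISC (q = 0.874 in the authors' deposited table). Of the summed level of these 4 genes Cbx2 made up 28.2% in Eed-null villus, 25.1% in wild-type villus and 41.5% in ISC. Cbx8 made up 52.6% in both Eed-null and wild-type villus and 40.0% in ISC.

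Cbx2 and Cbx8 are neighbours on chromosome 11 of mm9, at 118884342 to 118892584 and 118899749 to 118902227, with 7165 bp between them. Cbx6 (79616780 to 79664763) and Cbx7 (79746236 to 79763076) lie on chromosome 15, 81473 bp apart. Cbx6 shares its locus entry with Npcd and Nptxr, so its few reads cannot be assigned with certainty. Every gene tested between Eed-null and wild-type villus reached at least 0.3506 RPKM in a group, and Cbx6 reached that level only in Eed-null villus. That level is an observed minimum, not a stated limit of testing.

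The order of levels over the 3 groups, on the common scale, was ISC, Eed-null villus, wild-type villus from high to low for Cbx2, Cbx7, Cbx8, Rnf2 and Scmh1. For Ring1 and Pcgf2 it was ISC, wild-type villus, Eed-null villus. For Bmi1 and Cbx6 it was Eed-null villus, ISC, wild-type villus. Only the steps given as called above differ by the authors' test, and the tables hold no test of Eed-null villus against ISC. Ratios of Eed-null villus to ISC were from 0.34 for Pcgf2 to 1.72 for Bmi1. Summed over the 9 members the level was 36.6 RPKM in Eed-null villus against 22.3 RPKM in wild-type villus in one table, and 26.0 RPKM in wild-type villus and 52.7 RPKM in ISC in the other. Bmi1 made up 32.7% of the sum in Eed-null villus, 14.6% in wild-type villus and 15.3% in ISC.

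No gene on a list of other PRC1 subunits was called in Eed-null villus. Of 22 such genes 21 were tested and none passed in the authors' deposited table, with 1 higher and 1 lower at an unadjusted p under 0.05. Over all tested genes 7.90% were called higher and 3.46% lower, so a list of 21 would hold few calls at those shares. The median log2 ratio of the 21 was -0.20, beside -0.08 over all tested genes. The gene higher at that unadjusted p was Bcor, a subunit of the Pcgf1 complex, at 1.71 RPKM in Eed-null villus against 0.955 RPKM in wild-type villus (q = 0.0939 in the authors' deposited table). The lower one was Wdr5, at 5.86 RPKM in Eed-null villus against 8.76 RPKM in wild-type villus (q = 0.153 in the authors' deposited table). Between wild-type villus and ISC 14 of 22 were called lower and 4 higher in villus, with a median log2 ratio of -0.95. Over all tested genes 32.3% were called lower and 30.5% higher there, with a median log2 ratio of -0.10.

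The 4 called genes with the largest differences were Scml2, Bcor, Max and Auts2. Scml2, a relative of Scmh1, measured 0.0337 RPKM in villus, with 0.687 RPKM in ISC, and Bcor 1.11 RPKM in villus next to 7.06 RPKM in ISC. Auts2, a partner of the Pcgf3 and Pcgf5 complexes, measured 1.54 RPKM in villus, with 8.51 RPKM in ISC. Max, the shared partner of Myc and of the Pcgf6 complex, was higher in villus, at 138 RPKM against 22.7 RPKM in ISC. The other genes higher in villus were Rybp, a subunit of variant PRC1, with 26.0 RPKM in villus next to 10.4 RPKM in ISC, and Pcgf3 and Dcaf7.

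**Figure D4:**
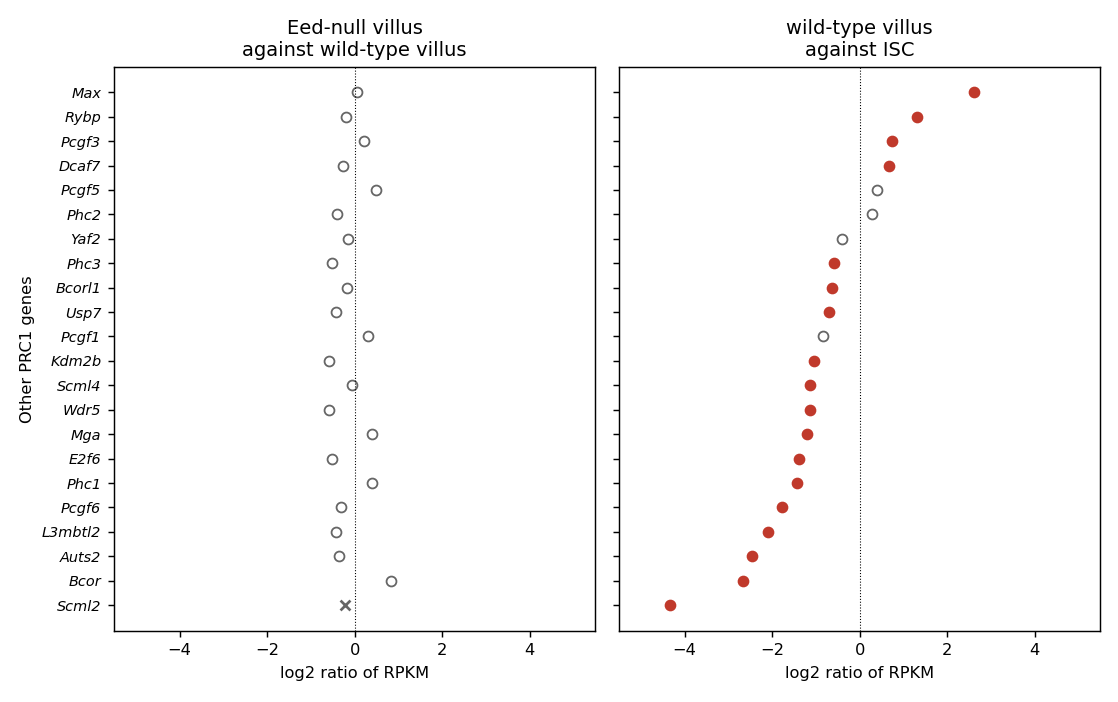
The log2 ratio of RPKM for 22 other PRC1 genes in Eed-null against wild-type villus (left) and wild-type villus against ISC (right), ordered by the right panel. Filled points are called, open points are tested and not called, and the cross is Scml2, which was not tested on the left; no point is filled on the left and 18 are on the right.

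HP1 genes encode chromodomain proteins that bind H3K9 methylation in place of H3K27me3, and PRC2 core genes encode the complex that Eed belongs to. All 3 HP1 genes were called lower in villus than in ISC, led by Cbx3 at 15.4 RPKM in villus next to 84.4 RPKM in ISC (q listed as 0 in the authors' deposited table). Cbx5 measured 5.19 RPKM in villus, with 15.4 RPKM in ISC, and Cbx1 19.6 RPKM in villus next to 39.3 RPKM in ISC. In Eed-null villus none of the 3 was called, with Cbx5 lower at an unadjusted p under 0.05, and their median log2 ratio was -0.40. Of 6 PRC2 core genes Eed alone was called in Eed-null villus, and in wild-type villus 5 were called lower than in ISC. Over all tested genes 3.46% were called lower in Eed-null villus, and 32.3% lower in wild-type villus than in ISC. Rbbp7 was at 23.3 RPKM in villus next to 92.6 RPKM in ISC, Ezh2 at 7.82 RPKM in villus next to 26.0 RPKM in ISC, and Rbbp4 at 13.9 RPKM in villus next to 34.4 RPKM in ISC. Ezh1, the other catalytic subunit, was called higher in villus.

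Cdkn2a, the gene of p16 and Arf that Polycomb is known to repress, measured 143 RPKM in Eed-null villus, with 0.3496 RPKM in wild-type villus (q listed as 0 in the authors' deposited table). It was not tested between wild-type villus and ISC, at 0.406 RPKM in villus next to 0.043 RPKM in ISC. By the 2 log2 ratios, over 3 groups and 11960 genes, the genes nearest to Bmi1 were Tert (Euclidean distance 0.09), St6galnac4 and Agxt2l1. Tert, which encodes the catalytic subunit of telomerase, was at 3.35 RPKM in Eed-null villus next to 0.898 RPKM in wild-type villus, and was called in both tables. St6galnac4 and Agxt2l1 were under 1 RPKM in every group. St6galnac4 was called in neither comparison and Agxt2l1 only in Eed-null villus. The genes nearest to Scmh1 were Snai3 (distance 0.11), Hk2 and Trim35. Snai3 was under 1 RPKM in every group and called only between villus and ISC, and Trim35 was called in both comparisons. Hk2, a hexokinase, was at 8.01 RPKM in Eed-null villus next to 2.87 RPKM in wild-type villus, and was also called in both tables. With 3 values per gene this likeness is a description only.

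Markers of other cells and states were read in both comparisons, and in Eed-null villus no marker list held more than 1 called gene. Over all tested genes 32.3% were called lower and 30.5% higher in wild-type villus than in ISC. In Eed-null against wild-type villus 3.46% were called lower and 7.90% higher. Between wild-type villus and ISC all 8 proliferation markers were called lower in villus (summed 113 RPKM in villus next to 426 RPKM in ISC), all 7 immediate early genes lower (summed 251 RPKM in villus next to 1152 RPKM in ISC), and all 8 leukocyte markers higher (summed 116 RPKM in villus next to 23.4 RPKM in ISC). Both tested Paneth cell markers of 3 were lower in villus, and the remaining one, Lyz1, is listed at 0 in ISC, which can be a failed estimate. Of 6 mesenchyme markers 1 was tested, Vim, which was lower in villus, and Col3a1 is listed at 0 in ISC. In Eed-null against wild-type villus 1 of 8 proliferation markers was called lower and none higher (summed 68.0 RPKM in Eed-null villus against 97.2 RPKM in wild-type villus), and 1 of 8 leukocyte markers lower (summed 63.9 RPKM in Eed-null villus against 100.2 RPKM in wild-type villus). Among stem cell markers 1 of 6, Olfm4, was called lower (summed 70.8 RPKM in Eed-null villus against 123 RPKM in wild-type villus), and Lct alone of 7 enterocyte markers (summed 23753 RPKM in Eed-null villus against 33623 RPKM in wild-type villus). Of the 6 stem cell markers 4 had higher values in Eed-null villus and 2 lower, with a median log2 ratio of 0.08. Egr1 alone of 7 immediate early genes (summed 231 RPKM in Eed-null villus against 216 RPKM in wild-type villus) and Ang4 alone of 3 Paneth cell markers (summed 2621 RPKM in Eed-null villus against 1831 RPKM in wild-type villus) were called higher. The part of these cells and states in the levels of PRC1 genes was not tested.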

How the data were processed

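RNA was sequenced from 9 libraries in 3 groups as 75 bp single-end reads from TruSeq V2 libraries, per the labels' protocols; the 14 chromatin immunoprecipitation and input libraries were not analysed here. The authors deposited 1 RPKM value per group and gene in 2 tables, with a p-value and q-value per gene, per the file headers. The Eed-null table names no unit; it was taken as RPKM because its wild-type villus values equal those of the ISC table divided by 1.16193 (1.16192 to 1.16194 over 10353 genes). TopHat2 2.0.6, Cufflinks 2.0.1, Bowtie, Cuffdiff and build mm9 are named without roles in the submitters' processing notes; the gene annotation was not given in the sources used here. Each q equals a Benjamini-Hochberg adjustment over tested genes to within 8.02e-05. Libraries of a group are labelled as biological replicates; nothing more is given on their origin.

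Ratios were taken from the deposited RPKM values with no pseudocount (Python 3.11.15, pandas 2.3.3). The call rule and adjustment were tested on simulated data. The members, gene lists and rules were chosen with earlier results of these data known. Every member is named; of each list, genes called in Eed-null villus and up to 4 with the largest difference between villus and ISC are named. Bcor and Wdr5 in Eed-null villus, Rybp, Pcgf3, Dcaf7, Commd3, Cisd3, Ezh1 and single markers were named after their values were seen. Other settings are in the closing section. Upstream windows are from RefSeq (GRCm38), whose coordinates are not those of the tables. Protein sequences were not used here. The list of other PRC1 subunits was used with 22 genes; a further gene chosen for it was left out and is not reported here.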

Additional observations from a re-analysis of the deposited data

How the results depend on the processing

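No paired analysis was possible because the tables hold 1 value per group and none per library; leaving out a replicate could not be run for the same reason. With q at or below 0.01 the called members were 2 in Eed-null against wild-type villus (Bmi1 and Scmh1, not Rnf2) and 4 in wild-type villus against ISC (Scmh1, Cbx2, Bmi1 and Rnf2, not Ring1 or Pcgf2). Under a Bonferroni adjustment over all tested genes, a stricter rule by construction, 1 was called in the first comparison (Bmi1) and 2 in the second (Cbx2 and Scmh1). A minimum ratio of 1.5, and a minimum of 1 RPKM in a group with the deposited or a recomputed adjustment, left 3 and 6. No member's ratio changed sign with a pseudocount of 0.1 or 1 RPKM or when ratios were centred on their median over genes that reached 1 RPKM in each group, which was -0.10 for Eed-null villus and 0.02 for wild-type villus against ISC. Without rescaling between the tables, Bmi1 and Cbx6 were still the 2 members above their ISC level in Eed-null villus, but 6 members in place of 7 were lowest in wild-type villus, since Cbx7 was then lower in Eed-null villus. Levels under about 1 RPKM, as for Cbx6, rest on few reads.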

Other observations

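The PR-DUB complex removes the ubiquitin that PRC1 attaches to histone H2A. Of its 6 genes Asxl3 was not tested in either table. None of the 5 tested was called in Eed-null villus, nor had any an unadjusted p under 0.05 in the authors' deposited table, and all 5 had lower values there. Of all tested genes with values above 0 in both groups, 57.8% had lower values in Eed-null villus. Bap1, the deubiquitinase, measured 11.6 RPKM in Eed-null villus, with 11.7 RPKM in wild-type villus. In wild-type villus against ISC, Asxl1, Foxk1 and Foxk2 were called lower, with Asxl1 at 4.25 RPKM in villus and 10.01 RPKM in ISC, while Bap1 measured 13.6 RPKM in villus, with 14.6 RPKM in ISC, and was not called (q = 0.733 in the authors' deposited table). Over all tested genes 32.3% were called lower there.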
